A study of Mus musculus with 35 samples.

Results

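Iron storage and oxidative stress genes were followed in sorted mouse paw skin cells after paclitaxel (PTX), a cancer drug that locks microtubules in place. The 10 genes were taken by symbol: Fth1, Ftl1, Slc40a1, Hmox1, Nqo1, Gclm, Txnrd1, Sod2, Mt1 and Mt2. All 10 were found among the 22609 symbols of the count tables. Messenger RNA of C57 mice aged 8 to 16 weeks had been sequenced in 35 libraries from 3 sorts of hind paw skin. Only males received PTX, as 2 intraperitoneal injections of 2 mg/kg with a day between them, and both paws were sampled 6 days after the second. The immune sort held CD45-positive cells of wild-type mice, with 4 libraries of PTX males, 4 of vehicle males and 4 of vehicle females. The fibroblast sort held tdTomato cells of Col1a2-cre-ER/tdTom mice in the same 3 groups of 4. The keratinocyte sort held tdTomato cells of K5-cre-ER/tdTom mice, with 4 PTX males (labelled PTX-short), 3 vehicle males and 4 vehicle females. Both Cre lines are inducible and mark cells by the promoter active when the Cre was switched on, so a sort is defined by lineage and not by present expression. There were no PTX females. Whether every library stands for another mouse is not stated in the labels, and p-values here cover the spread between samples, part of which may be technical.

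Cells store iron in ferritin, a shell of heavy (Fth1) and light (Ftl1) chains, and release it through the only known iron exporter, ferroportin (Slc40a1). Heme oxygenase 1 (Hmox1) frees iron from heme and is a prominent enzyme of macrophages that take up red cells. Ferritin and ferroportin messages carry an iron-responsive element, a short hairpin near the start of the message to which iron regulatory proteins bind when iron is scarce, which holds back translation. Ferritin protein can therefore differ from its messenger RNA, which is what was measured here. NRF2, the transcription factor encoded by Nfe2l2, drives many antioxidant genes, among them Hmox1, both ferritin chains, Nqo1 (a quinone reductase), Gclm (a subunit of the enzyme that starts glutathione synthesis) and Txnrd1 (cytosolic thioredoxin reductase). Sod2 removes superoxide in mitochondria and is a known target of NF-kB. Metallothioneins 1 and 2 (Mt1, Mt2) bind zinc and copper and are induced by metals through the factor MTF1.

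The feature that 3 of the genes share is shown first. A script searched 5′ untranslated regions in GENCODE M21 on GRCm38 for a 17-base hairpin with the loop CAGTGN, and found it in Slc40a1, Ftl1 and Fth1. The loop is in capitals, and each sequence is written 5′ to 3′ on the strand of the gene.
Slc40a1, chr1:45925471-45925487, minus strand: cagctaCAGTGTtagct
Ftl1, chr7:45459785-45459801, minus strand: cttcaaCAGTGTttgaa
Fth1, chr19:9982738-9982754, plus strand: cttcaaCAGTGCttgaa
The same pattern was present in 31 of 20580 genes with a 5′ untranslated region (0.151%). The count tables had been made on mm9, so these positions serve only to place the elements.

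The metallothionein promoters are shown because Mt1 and Mt2 moved together in these libraries. They are neighbours on chromosome 8, with 5315 bases between the end of Mt2 and the start of Mt1. Capitals mark the core of the metal response element, TGCACNC or TGCGCNC on either strand, in windows of 300 bases around the gene start from RefSeq on GRCm38.p6.
Mt2, chr8:94172368-94172667, plus strand: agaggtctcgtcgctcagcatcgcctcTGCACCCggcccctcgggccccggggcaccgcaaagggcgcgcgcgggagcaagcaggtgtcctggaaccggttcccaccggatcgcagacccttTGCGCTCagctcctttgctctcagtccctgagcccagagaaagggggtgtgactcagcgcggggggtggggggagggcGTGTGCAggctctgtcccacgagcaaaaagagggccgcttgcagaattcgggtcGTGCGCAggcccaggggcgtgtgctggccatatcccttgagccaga
Mt1, chr8:94178839-94179138, plus strand: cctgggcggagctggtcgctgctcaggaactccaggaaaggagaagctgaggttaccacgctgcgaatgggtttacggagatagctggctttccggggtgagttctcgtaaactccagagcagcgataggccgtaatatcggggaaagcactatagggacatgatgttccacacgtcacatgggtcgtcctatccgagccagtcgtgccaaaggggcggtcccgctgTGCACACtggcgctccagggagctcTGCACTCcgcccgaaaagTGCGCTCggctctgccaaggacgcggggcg
The Mt2 window held 4 such cores and the Mt1 window 3. Of the other members, Gclm also had 3 in its window, and no window of Fth1, Ftl1, Nqo1, Txnrd1 or Sod2 held any. Slc40a1 and Hmox1 had no window to search. Among 32841 promoter windows of this length, 1.97% held at least 3 and 0.518% at least 4. The Mt2 window also held 1 copy of TGACNNNGC, the core of the antioxidant response element, which 12.4% of the windows hold on either strand. The Gclm window and 1 Txnrd1 window held 1 copy as well, and no window of Mt1, Fth1, Ftl1, Nqo1 or Sod2 held any. These are letter matches in a window and do not show that a factor was bound.

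Depth and purity bear on every value below. Immune libraries held 13847475 to 18979776 counts in genes and fibroblast libraries 13359088 to 20809036. Keratinocyte libraries held 6518070 to 12055718, apart from vehicle female 2 with 988712. Levels are given in CPM, a gene's count relative to the total of its library after TMM scaling, a correction of library size for composition. PTX comparisons use levels scaled within a sort, and comparisons at rest use levels scaled over the 23 vehicle libraries. Fth1, Ftl1, Sod2, Mt1 and Mt2 were above 1 CPM in all 35 libraries, whereas Slc40a1 was below it in 19, Nqo1 in 18, Hmox1 in 6, Gclm in 5 and Txnrd1 in 1. The vehicle libraries of each sort carried its markers, but markers of other cells differed between groups. For PTX those values stand beside the results they accompany. At rest, fibroblast markers summed to 5181 to 11620 CPM in immune vehicle males, against 110 to 490 CPM in immune vehicle females. Endothelial markers summed to 1.38, 1.93 and 548 CPM in the 3 keratinocyte vehicle males, against 5.36 to 36.8 CPM in keratinocyte vehicle females. The high sum thus came from 1 library. These libraries are part of the contrasts at rest, and the part of such cells there was not tested. In bulk samples, fewer cells of a type and less RNA per cell cannot be told apart. Alignments without a unique place were not counted in genes. They made up 34.9 to 60.9% of a library's total over all lines of its file, which may differ from the share of reads. GENCODE M21 names 2 pseudogenes each of Fth1 and Ftl1, so ferritin levels are uncertain to that extent. In vehicle libraries the share of such alignments was 42.2 to 45.8% in immune, 34.9 to 37% in fibroblast and 50.4 to 60.9% in keratinocyte libraries. These ranges did not overlap between the sorts, and the part of this in the differences at rest was not tested.

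**Figure D1:**
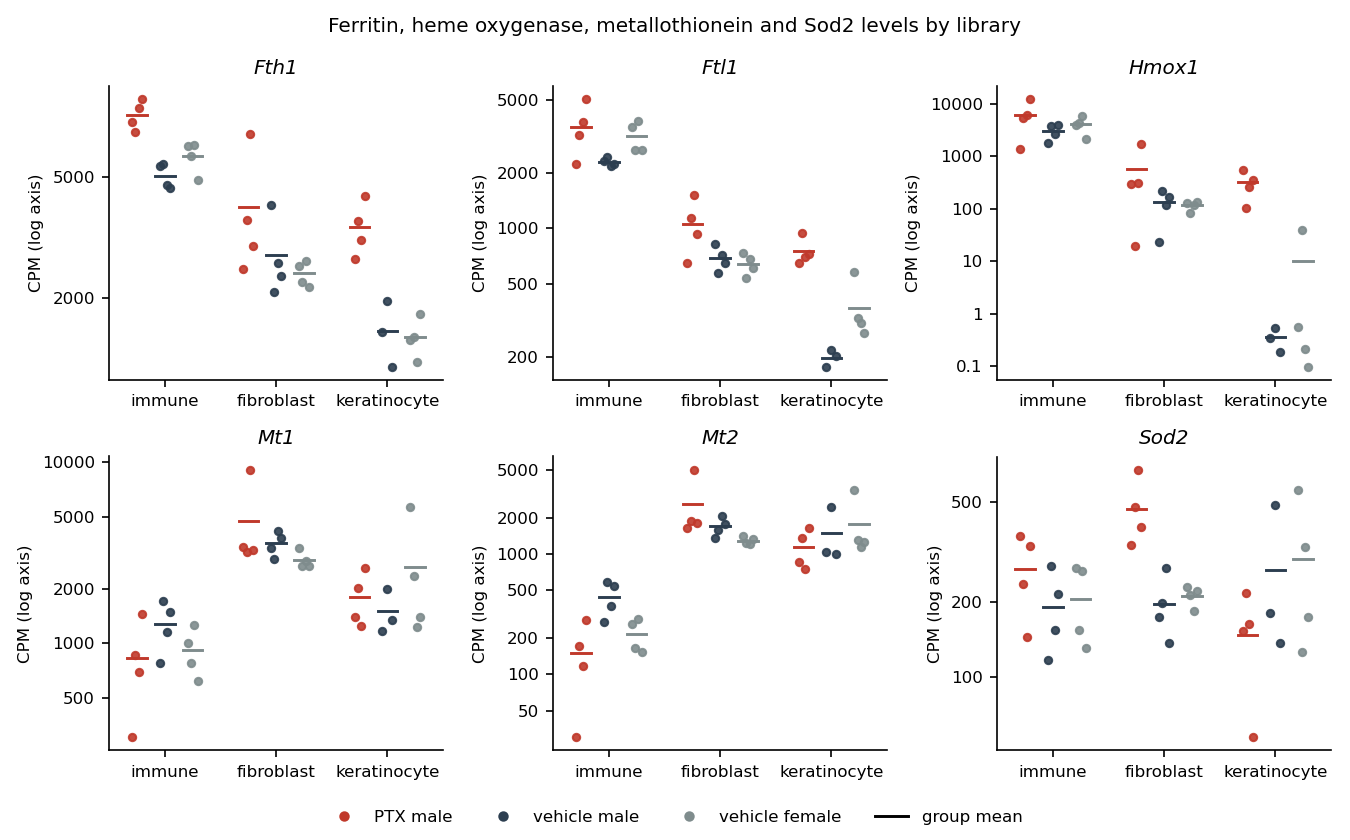
Levels of Fth1, Ftl1, Hmox1, Sod2, Mt1 and Mt2, in CPM on log axes, scaled within each sort. Points are libraries and bars are group means. In keratinocyte libraries the 4 PTX males lie above both vehicle groups for Fth1, Ftl1 and Hmox1. In immune libraries they do so for Fth1, and in fibroblast libraries for Sod2.

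At rest, the immune sort had the highest levels of ferritin and heme oxygenase message, the lowest of Mt2, and less Mt1 than the fibroblast sort. Fth1 had a lowest, median and highest level of 4556, 5713 and 6756 CPM in the 8 immune vehicle libraries, 2629, 3211 and 5494 CPM in the 8 fibroblast libraries and 988, 1313 and 1465 CPM in the 7 keratinocyte libraries. The keratinocyte range lay below both others, while the immune and fibroblast ranges overlapped. Ftl1 ranged from 2227 to 4117 CPM in immune libraries, from 651 to 1112 CPM in fibroblast libraries and from 135 to 550.0 CPM in keratinocyte libraries, with no overlap between any of the sorts. Of the 10 members, 6 were called between immune and fibroblast libraries, 5 between immune and keratinocyte libraries and 5 between fibroblast and keratinocyte libraries. Called means an adjusted p under 0.05 in edgeR's quasi-likelihood test with Benjamini-Hochberg adjustment. For all 14104 genes tested, the shares called in these comparisons were 21.2, 32.1 and 31.1%. The median gene differed by 0.05, 0.48 and 0.40 on the log2 scale in the same order, and by 0.36, 0.17 and -0.18 with plain CPM. Of the genes called between fibroblast and keratinocyte libraries, 66.3% were higher, and 53.5% with plain CPM.

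Ferritin differed in all 3 contrasts. The SE given with an edgeR fold change is implied by its test: the size of the change divided by the square root of the F statistic. In edgeR's test Fth1 was higher in immune than in fibroblast libraries by a log2 fold change of 0.78 ± 0.17 (SE, n = 8 each, adjusted p = 0.00132) and higher than in keratinocyte libraries by 2.19 ± 0.19 (n = 8 and 7, adjusted p = 1.14e-09). It was also higher in fibroblast than in keratinocyte libraries, by 1.41 ± 0.18 (n = 8 and 7, adjusted p = 1.4e-06). With vehicle males alone, the immune against fibroblast difference of Fth1 was 0.51 with an adjusted p of 0.314. The fold changes of the light chain were larger than those of the heavy chain, without a test of that difference. Ftl1 was higher in immune libraries by 1.74 ± 0.21 against fibroblast and 3.66 ± 0.25 against keratinocyte libraries, and in fibroblast libraries by 1.92 ± 0.23 against keratinocyte libraries (edgeR adjusted p = 7.06e-07, 1.54e-11 and 3.45e-07). With voom quality weights, Fth1 was not called against keratinocyte libraries in immune (adjusted p = 0.0665) or fibroblast libraries (0.333), nor was Ftl1 in fibroblast libraries (0.276). Within a library, the ratio of Ftl1 to Fth1 counts was 0.430 to 0.609 in immune, 0.202 to 0.289 in fibroblast and 0.111 to 0.397 in keratinocyte vehicle libraries. This ratio was looked at after the levels were known, and it is not corrected for gene length.

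Ferroportin and heme oxygenase had the steepest differences between sorts. Slc40a1 had 6526 counts over the 8 immune vehicle libraries and 21 over the 8 fibroblast vehicle libraries. The ratio of these sums per library size was 311 (95% exact counting interval 203 to 502), and the fitted log2 fold change was 7.83 ± 1.68 (edgeR adjusted p = 0.0013). With vehicle males alone the fitted value was 6.88 with an adjusted p of 0.0596. Keratinocyte libraries did not behave as a group: Slc40a1 was at 239 CPM in vehicle male 2 and at 60.3 CPM in vehicle female 2, at 3.55 CPM in vehicle male 3, and below 1 CPM in the other 4. Its call between fibroblast and keratinocyte libraries (-7.41 ± 1.66, adjusted p = 0.00145) was -4.43 and kept without keratinocyte vehicle female 2, and the adjusted p was 0.182 with the replicate number as a block, 0.16 with voom quality weights and 0.0715 with females alone. Hmox1 ranged from 1896 to 6162 CPM in immune libraries, from 32.1 to 267 CPM in fibroblast libraries and from 0.0808 to 33.9 CPM in keratinocyte libraries. Only keratinocyte vehicle female 2, the library with the fewest counts, was above 1 CPM in that last group. Hmox1 was higher in immune than in fibroblast libraries by 4.55 ± 0.79, higher in immune than in keratinocyte libraries by 11.28 ± 1.20 and higher in fibroblast than in keratinocyte libraries by 6.74 ± 0.99 on the log2 scale. The adjusted p was 1.11e-05 or less in the last 2 of these edgeR tests and 0.000124 in the first. With voom quality weights, none of the 3 Hmox1 differences was called (adjusted p = 0.273, 0.598 and 0.788). Without keratinocyte vehicle female 2, the 2 differences against keratinocyte libraries grew to 13.75 and 9.21.

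Metallothionein ran the other way. Mt1 had a lowest, median and highest level of 654, 1134 and 1769 CPM in immune libraries, 3222, 3908 and 5296 CPM in fibroblast libraries and 893, 1147 and 5291 CPM in keratinocyte libraries. Mt2 lay at 163, 298 and 611 CPM in immune libraries, 1460, 1800.3 and 2670.2 CPM in fibroblast libraries and 790, 1029 and 3217 CPM in keratinocyte libraries. Every immune library was below every fibroblast library for both genes, and for Mt2 also below every keratinocyte library. The edgeR log2 fold change of immune against fibroblast libraries was -1.85 ± 0.28 for Mt1 (adjusted p = 2.79e-05) and -2.54 ± 0.29 for Mt2 (adjusted p = 2.93e-07). Against keratinocyte libraries it was -2.05 ± 0.29 for Mt2 (adjusted p = 6.54e-06) and -0.55 ± 0.29 for Mt1 (adjusted p = 0.148), the last with the opposite sign (0.19) in vehicle males alone and called without keratinocyte vehicle female 3 (-0.72, adjusted p = 0.0499) and with plain CPM (-0.81, adjusted p = 0.0167). Between fibroblast and keratinocyte libraries Mt1 was higher by 1.30 ± 0.30 (edgeR adjusted p = 0.00164), a call not kept in females alone (0.60, adjusted p = 0.462). Mt2 did not pass there (0.49 ± 0.29, adjusted p = 0.209), was called without keratinocyte vehicle female 1 (0.78, adjusted p = 0.0241), and had the opposite sign (-0.069) with plain CPM. The sorts also differed in the ratio of the pair: Mt2 counts divided by Mt1 counts were 0.213 to 0.366 in immune, 0.401 to 0.549 in fibroblast and 0.556 to 1.22 in keratinocyte vehicle libraries, with no overlap. This ratio was looked at after the levels were known, and has no test.

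Among the remaining enzymes, differences at rest were small or rested on few libraries. Txnrd1 averaged 286 ± 93.5 CPM in immune, 174 ± 142 in fibroblast and 68.4 ± 76.4 CPM in keratinocyte libraries (SD, n = 8, 8 and 7), and was called higher in immune than in keratinocyte libraries (edgeR 2.41 ± 0.87, adjusted p = 0.0357). That call was lost without immune vehicle female 1 (adjusted p = 0.0557), immune vehicle male 2 (0.052), keratinocyte vehicle female 1 (0.0601) or keratinocyte vehicle male 1 (0.0796), with plain CPM (0.0641), and in vehicle males (0.152) or females (0.279) alone. Sod2 averaged 208 ± 71.1, 258 ± 47.4 and 237 ± 158 CPM in immune, fibroblast and keratinocyte libraries, and none of its 3 contrasts passed (edgeR adjusted p = 0.674 or more). Neither did those of Gclm, at 43.9 ± 18.3, 33.9 ± 17.3 and 69.3 ± 52.2 CPM, or of Nqo1, at 5.11 ± 4.60, 7.70 ± 10.8 and 26.5 ± 45.3 CPM in the same sorts. For these 3 enzymes, the order of the sorts was within the spread between libraries.

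**Figure D2:**
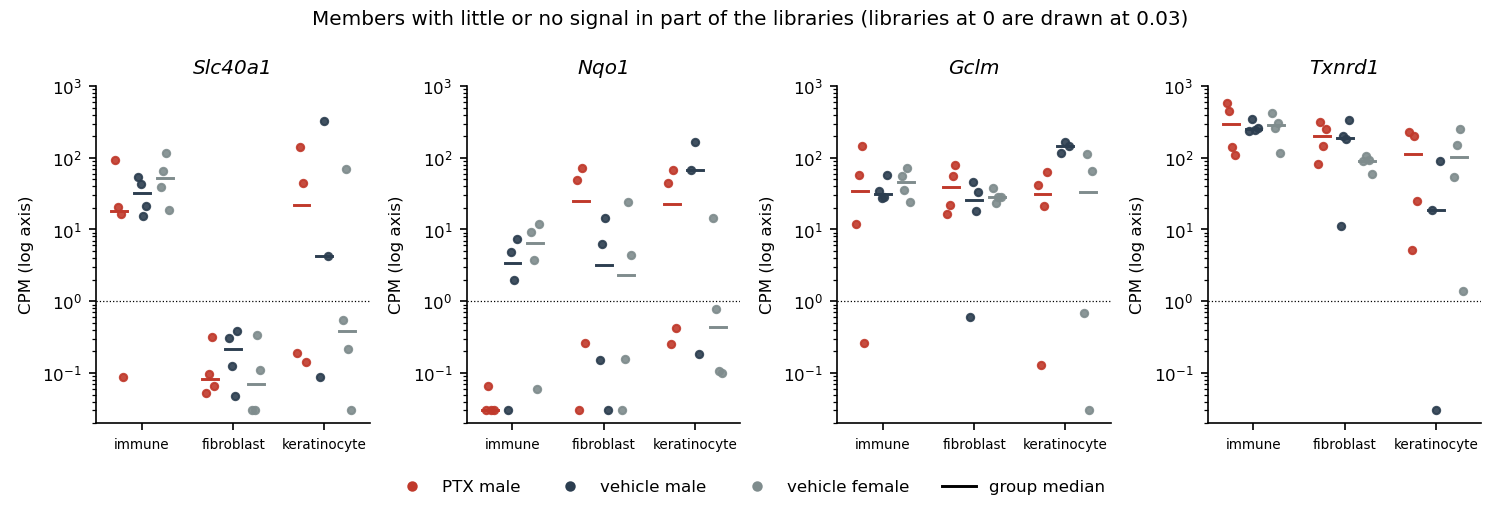
Levels of Slc40a1, Nqo1, Gclm and Txnrd1, in CPM on log axes, scaled within each sort, with libraries at 0 drawn at 0.03 and the dotted line at 1 CPM. Points are libraries and bars are group medians (a library at 0 taken as 0.03). Slc40a1 was below 1 CPM in all 12 fibroblast libraries, and Nqo1 was at 0 in 3 of the 4 immune PTX libraries.

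PTX was compared with vehicle in males of each sort, to see which of these genes differed 6 days after the drug. In keratinocyte libraries, both ferritin chains and heme oxygenase were higher in PTX males, in every library and against both vehicle groups. In immune libraries Fth1 was higher, and in fibroblast libraries no member passed. Members called were 3 of 10 tested in keratinocyte libraries, all higher, where 1.45% of all 10939 genes tested were called (1.15% higher, 0.302% lower). In immune libraries 1 of 10 was called, higher, against 5.52% of 12131 genes (0.824% higher, 4.7% lower). In fibroblast libraries 0 of 9 were called, against 0.0184% of 10857 genes (0.00921% in each direction). The 9 exclude Slc40a1, which was too low for the filter on counts. The median log2 fold change over the members tested was -0.06 in keratinocyte, 0.36 in immune and 0.62 in fibroblast libraries, beside 0.07, 0.04 and 0.08 over all genes tested.

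In keratinocyte libraries Fth1 was at 2696, 3588, 3115 and 4338 CPM in PTX males 1 to 4, against 1552, 1959 and 1198 CPM in vehicle males 1 to 3. Vehicle females lay between 1243 and 1786 CPM, so all 4 PTX libraries were above all 7 vehicle libraries. The log2 fold change was 1.13 ± 0.26 (edgeR, n = 4 and 3, adjusted p = 0.0287). Ftl1 was at 651, 950.4, 698 and 724 CPM in PTX males, against 178, 217 and 202 CPM in vehicle males. Vehicle females were between the 2, at 583, 328, 307 and 269 CPM, again with no overlap. The edgeR log2 fold change of Ftl1 against vehicle males was 1.93 ± 0.47 (adjusted p = 0.0489), and against vehicle females it was 1.02 (adjusted p = 0.252).

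Hmox1 had the largest fold change of the 3. It was at 551, 104, 258 and 348 CPM in PTX males, against 0.346, 0.535 and 0.183 CPM in vehicle males, or 12311 counts against 9 in all. Per library size the ratio of summed counts was 993 (95% exact counting interval 523 to 2170), and the fitted log2 fold change was 9.77 ± 2.40 (edgeR adjusted p = 0.0487). Vehicle females were at 0.550, 38.6, 0.214 and 0.0985 CPM, which gave 5.04 with an adjusted p of 0.18. All 3 called genes were among those without overlap, which 9.15% of tested genes had in this direction against vehicle males and 4.6% against both vehicle groups. Among vehicle females, female 2 with its 38.6 CPM of Hmox1 also had the highest macrophage marker sum, 323 CPM, against 91.3 to 191 CPM in the others. That is 1 of 15 marker lists in 1 library, and the part of macrophages in its Hmox1 level was not tested. Gclm was the only member lying lower without overlap, at 41.4, 0.128, 21.2 and 64.1 CPM in PTX males against 116, 166 and 145 CPM in vehicle males (background 4.29%, and 1.21% against both vehicle groups). It was not called (adjusted p = 0.836), and vehicle females spread from 0 to 114 CPM.

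The 3 keratinocyte calls were close to the threshold. With vehicle females as the control only Fth1 was called. In edgeR fits without 1 library, Fth1 had adjusted p = 0.0912 without vehicle female 3, 0.112 without vehicle male 1, 0.185 without vehicle male 3, 0.0754 without PTX male 2 and 0.108 without PTX male 4. Hmox1 lost its call without any vehicle male (0.166, 0.12 and 0.192 for vehicle males 1 to 3) and without any PTX male (0.171, 0.0743, 0.102 and 0.119 for PTX males 1 to 4). Ftl1 lost it in 10 of 11 such fits, all but the one without vehicle female 1, with adjusted p = 0.0527, 0.102 and 0.052 without vehicle females 2 to 4, 0.218, 0.109 and 0.194 without vehicle males 1 to 3, and 0.0807, 0.138, 0.1 and 0.0833 without PTX males 1 to 4. The log2 fold changes in those fits stayed between 0.99 and 1.30 for Fth1, 1.81 and 2.00 for Ftl1 and 9.36 and 10.12 for Hmox1. With RLE scaling none of the 3 was called (adjusted p = 0.161 for Fth1, 0.107 for Ftl1 and 0.0582 for Hmox1). Fth1 was also lost with no count filter (0.202), DESeq2 (0.305), voom quality weights (0.137) and the replicate block (0.0732), Ftl1 with no count filter (0.251) and the replicate block (0.137), and Hmox1 with plain CPM (0.0585).

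Markers of other cells moved with these calls. The 15 fibroblast markers summed to between 16900 and 23000 CPM in keratinocyte libraries of PTX males, against 229 to 752 CPM in vehicle males and 327 to 1385 CPM in vehicle females. All 15 were above 1 CPM in each PTX library, and 7 in each vehicle male library. The 9 pan-immune markers found summed to between 1025 and 1562 CPM in PTX males, against 12.5 to 67.6 CPM in vehicle males and 14.5 to 144 CPM in vehicle females. The 14 macrophage markers summed to between 2020 and 4187 CPM in PTX males, against 44.6 to 53.0 CPM in vehicle males. The 12 endothelial markers summed to between 3498 and 4927 CPM in PTX males, against 1.38, 1.93 and 548 CPM in the 3 vehicle males. The 10 basal keratinocyte markers summed to between 3946 and 13220 CPM in PTX males, against 23840 to 32650 CPM in vehicle males. Fth1, Ftl1 and Hmox1 are all higher at rest in the immune and fibroblast sorts than in the keratinocyte sort, as given above. The part of those cells in the differences was not tested. Of the genes, 4511 to 8846 had over 10 counts in keratinocyte vehicle males, with the fewest in vehicle male 2. Vehicle females had 6508 to 8162 and PTX males 7398 to 10211. The part of these numbers in the members' values was not tested either.

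**Figure D3:**
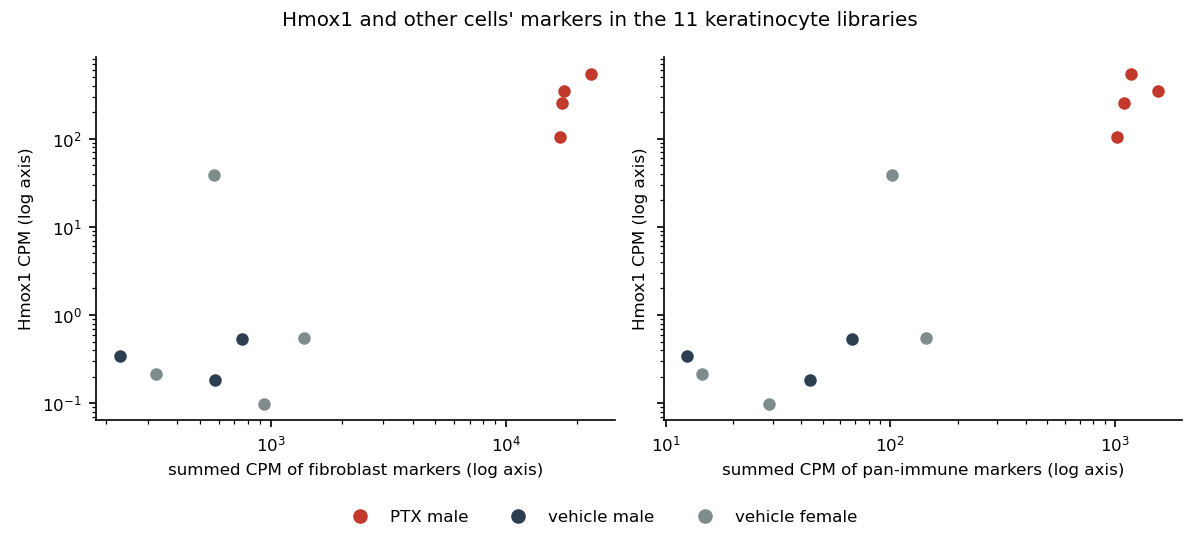
Hmox1 against the summed level of fibroblast markers (left) and pan-immune markers (right) in the 11 keratinocyte libraries, in CPM on log axes. Each point is a library. The 4 PTX males stand at the upper right in both panels, with 16900 CPM or more of fibroblast markers, and vehicle female 2 has Hmox1 at 38.6 CPM among vehicle levels of the markers.

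In immune libraries Fth1 was at 7558, 6982, 8412 and 8954 CPM in PTX males 1 to 4, against 5411, 5492, 4689.5 and 4586 CPM in vehicle males 1 to 4. Vehicle females, at 4874 to 6332 CPM, also lay below every PTX library. Fth1 rose by 0.66 ± 0.14 on the log2 scale (edgeR, n = 4 each, adjusted p = 0.0181), and it was the only member without overlap against vehicle males (background 2.65% higher, 11% lower) or both vehicle groups (1.15% higher, 3.55% lower). The call was lost without vehicle male 3 (0.63, adjusted p = 0.0602) or vehicle male 4 (0.62, adjusted p = 0.0558), and with voom quality weights (adjusted p = 0.0673), plain CPM (0.36, adjusted p = 0.115), the replicate number as a block (adjusted p = 0.0602) and vehicle females as the control (0.45, adjusted p = 0.126). Ftl1 was at 2252, 3200.4, 3784 and 5027 CPM in PTX males, against 2184 to 2448 CPM in vehicle males and 2659 to 3858 CPM in vehicle females. PTX male 1 was inside the range of the vehicle males and the other 3 above it. The Ftl1 difference of 0.63 ± 0.22 did not pass in edgeR (adjusted p = 0.108). It passed without PTX male 1 (0.81, adjusted p = 0.0335) and in DESeq2 (0.74, adjusted p = 0.0276).

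The other iron genes of the immune sort spread widely under PTX. Hmox1 was at 1365, 5341, 5932 and 11999.9 CPM in PTX males, against 1798, 3805, 2629 and 3954 CPM in vehicle males. PTX male 1 was the lowest and PTX male 4 the highest of the 8 libraries, and the difference of 1.02 ± 0.49 did not pass (edgeR adjusted p = 0.289) and was 0.48 without PTX male 4. Slc40a1 was at 91.7, 20.4, 16.3 and 0.0866 CPM in PTX males, against 53.1, 43.0, 15.6 and 21.5 CPM in vehicle males, and was not called. The PTX libraries held both the highest and the lowest value of the 2 groups.

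Metallothionein levels of the immune sort were low in some PTX libraries. Mt2 was at 30.2, 172, 118 and 285 CPM in PTX males, against 270.0, 587, 373 and 544 CPM in vehicle males and 154 to 291 CPM in vehicle females. PTX males 1 to 3 were below all vehicle males, and PTX male 4 was just inside their range. The edgeR log2 fold change was -1.55 ± 0.52 with an unadjusted p of 0.00964 and an adjusted p of 0.0968, and the adjusted p was 0.0489 in DESeq2 and 0.0415 with plain CPM. Mt1 was at 304, 858, 689.9 and 1450.25 CPM in PTX males, against 781, 1699, 1153 and 1486 CPM in vehicle males (-0.63 ± 0.39, adjusted p = 0.498). The ratio of Mt2 to Mt1 counts was 0.0994 to 0.201 in PTX males, against 0.323 to 0.366 in vehicle males and 0.213 to 0.263 in vehicle females. The 3 ranges did not overlap, and vehicle females lay nearer to the PTX males than vehicle males did. This ratio was chosen after the levels were seen and is given without a test.

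Of Nqo1, Sod2, Gclm and Txnrd1, none was called by edgeR in the immune sort, and DESeq2 called Nqo1 (adjusted p = 0.00956). Nqo1 had 1 count over the 4 PTX libraries and 266 over the 4 vehicle male libraries, a ratio of 0.00431 per library size (95% exact counting interval 0.000109 to 0.0242), with vehicle male 1 also at 0. Its edgeR adjusted p was 0.0875, and vehicle males did not exceed 7.33 CPM. Sod2 was at 369, 236, 145 and 335 CPM in PTX males, against 118, 278, 154 and 216 CPM in vehicle males (0.50 ± 0.38, edgeR adjusted p = 0.636). Gclm spread from 0.260 to 147 CPM in PTX males, against 27.9 to 57.4 CPM in vehicle males. Txnrd1 was at 579 and 443 CPM in PTX males 1 and 2 and at 142 and 108 CPM in PTX males 3 and 4, on either side of the vehicle males at 239 to 348 CPM. For both, the PTX range reached beyond the vehicle male range at each end. Fewer genes were detected in the immune PTX libraries, which held 13847475 to 16251636 counts, against 16076472 to 18766402 in vehicle males and 14437683 to 18979776 in vehicle females. Of the genes, 5956 to 8700 had over 10 counts in PTX males, against 11000 to 12813 in vehicle males and 10974 to 11036 in vehicle females. The part of this in the Nqo1, Gclm and Slc40a1 values was not tested.

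Cell markers also differed between the immune groups. The 15 fibroblast markers summed to between 299.8 and 1510 CPM in PTX males, against 5181 to 11620 CPM in vehicle males and 110 to 490 CPM in vehicle females. Dendritic cell markers (12 found) summed to between 28980 and 52050 CPM, against 10580 to 16680 CPM in vehicle males and 11530 to 22270 CPM in vehicle females. Macrophage markers (14 found) overlapped, at 28050 to 58060 CPM in PTX males and 25840 to 35150 CPM in vehicle males. Mast cell markers (12 found) summed to between 3793 and 9195 CPM in PTX males, against 1778 to 3388 CPM in vehicle males and 7141 to 8982 CPM in vehicle females. Markers of 3 other cell types were lower in PTX males than in both vehicle groups. Endothelial markers (12 found) were at 28.3 to 197 CPM in PTX males, against 275.5 to 1125 CPM in vehicle males and 210.4 to 376 CPM in vehicle females. Smooth muscle and pericyte markers (11 found) were at 5.94 to 42.4 CPM, against 445 to 2752 CPM in vehicle males and 203 to 815 CPM in vehicle females. Adipocyte markers (7 found) were at 1.09 to 10.6 CPM, against 237 to 3680 CPM in vehicle males and 27.1 to 49.3 CPM in vehicle females. Mt1 and Mt2 are both higher at rest in the fibroblast than in the immune sort, and Fth1, Ftl1, Hmox1 and Slc40a1 are lower, as given above. The part of these cells in the members' values was not tested.

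In fibroblast libraries no member was called by edgeR, nor by DESeq2, which called 403 genes, or with voom quality weights, which called 0. At an unadjusted p under 0.05, edgeR had 3 members (Sod2, Hmox1 and Ftl1) and 876 genes. The clearest separation was that of Sod2, at 338, 479.8, 675 and 397 CPM in PTX males 1 to 4, against 174, 198, 275 and 137 CPM in vehicle males and 184 to 229 CPM in vehicle females. Every PTX library was above all 8 vehicle libraries, which held for 0.461% of tested genes in this direction and 0.654% in the other (1.38% and 1.81% against vehicle males alone). Sod2 was the only member to do so. The log2 fold change of Sod2 was 1.27 ± 0.38, with an unadjusted p of 0.00349 and an adjusted p of 0.468 in edgeR. It lay between 1.01 and 1.47 in the fits without 1 library, and none of those passed. Summed pan-immune markers (9 found) were 19.6 to 74.1 CPM in PTX males and 13.1 to 66.5 CPM in vehicle males, and macrophage markers were 199 to 462 CPM in PTX males and 206 to 391 CPM in vehicle males. Smooth muscle and pericyte markers (11 found) reached further in PTX males, at 341 to 3949 CPM against 332 to 958 CPM in vehicle males. The 15 fibroblast markers were lower in PTX males, at 37020 to 54760 CPM against 56840 to 84040 CPM in vehicle males. Their part in the Sod2 values was not tested.

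Iron genes in fibroblast libraries were uneven between PTX males. Hmox1 was at 300.3, 19.6, 308 and 1668 CPM in PTX males, against 23.6, 213, 118 and 169.7 CPM in vehicle males. PTX male 2 was the lowest of the 8 libraries and PTX male 4 by far the highest. The log2 fold change of 2.13 ± 0.85 did not pass (edgeR adjusted p = 0.483) and was 0.73 without PTX male 4. Fth1 was at 2488, 3604, 6895 and 2963 CPM in PTX males, against 4043, 2097, 2605 and 2377 CPM in vehicle males (0.52 ± 0.28, adjusted p = 0.722), and 0.09 without PTX male 3. Ftl1 was at 651, 1146, 1517 and 933 CPM in PTX males, against 818, 572, 715 and 650.4 CPM in vehicle males (0.62 ± 0.28, adjusted p = 0.55). For both chains the PTX and vehicle males overlapped, with PTX male 3 highest. Of the genes, 5360 to 9532 had over 10 counts in fibroblast PTX males, with the fewest in PTX male 2. Vehicle males had 7010 to 10089, with the fewest in vehicle male 1, and vehicle females 9502 to 10724. The part of this in the Hmox1 values, and in those of Nqo1 and Gclm given below, was not tested.

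The same PTX male 3 stood apart for metallothionein in fibroblasts. Mt1 was at 3406, 3190.3, 9043 and 3281 CPM in PTX males, against 2900.4 to 4147 CPM in vehicle males, and Mt2 at 1635, 1882, 5009 and 1809.6 CPM, against 1351 to 2091 CPM in vehicle males. The log2 fold change of Mt1 was 0.41 ± 0.28 with that library and -0.13 without it, and that of Mt2 0.60 ± 0.31 and 0.03. Neither passed with or without it. Alignments without a unique place made up 39.4, 37.4, 47.7 and 44.5% of the total over all lines in fibroblast PTX males 1 to 4. Vehicle males had 34.9 to 37% and vehicle females 35.4 to 36.3%. PTX male 3 had the highest share of the fibroblast libraries. The part of these shares in the ferritin and metallothionein values was not tested. The ratio of Mt2 to Mt1 counts stayed near that of the vehicle libraries, at 0.480 to 0.590 in PTX males and 0.401 to 0.549 in vehicle males. Nqo1 was above 40 CPM in PTX males 1 and 3 (49.5 and 71.3 CPM) and below 1 CPM in PTX males 2 and 4, against at most 14.6 CPM in vehicle males. Gclm ranged from 16.4 to 80.4 CPM in PTX males and 0.608 to 45.4 CPM in vehicle males. Txnrd1 ranged from 81.0 to 310.5 CPM in PTX males and 11.2 to 335 CPM in vehicle males. Those ranges overlapped, and none of the 3 was called.

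Members that did not pass in keratinocyte libraries overlapped between the groups, apart from Gclm. Mt1 was at 1242 to 2590.2 CPM in PTX males, against 1173 to 2002 CPM in vehicle males, and Mt2 at 745 to 1652 CPM, against 1009 to 2448 CPM in vehicle males. Sod2 lay at 153, 216, 163 and 57.6 CPM in PTX males, against 181, 487 and 137 CPM in vehicle males (-0.86 ± 0.76, edgeR adjusted p = 0.816). Txnrd1, Nqo1 and Slc40a1 each had PTX and vehicle male libraries on both sides of 30 CPM, and none was called.

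**Figure D4:**
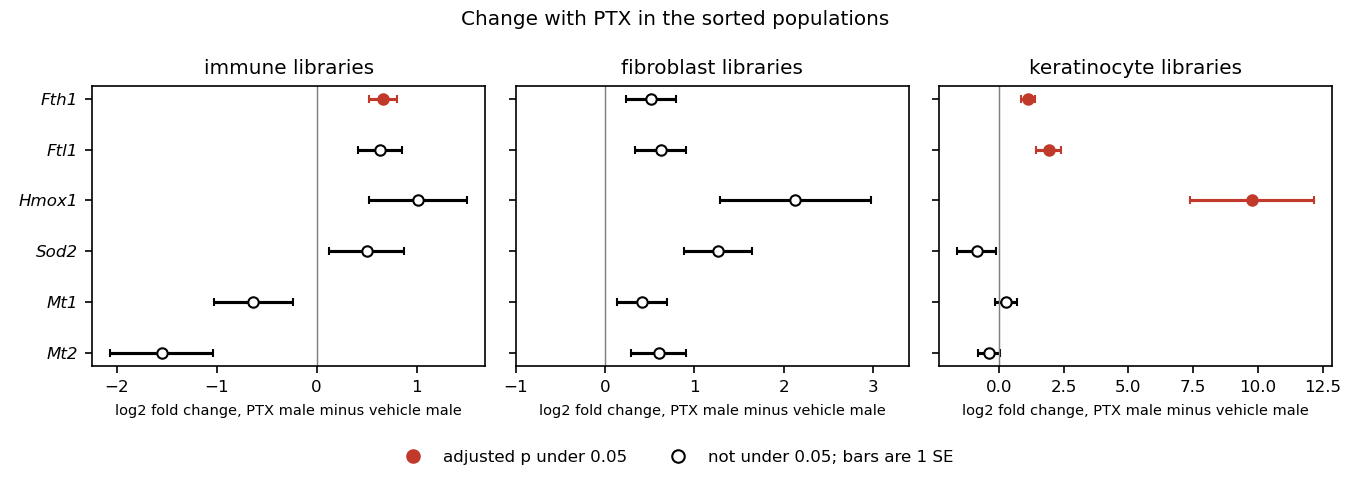
Log2 fold changes of PTX males against vehicle males for 6 members in each sort, with bars of 1 SE implied by the test. Filled red points had an adjusted p under 0.05, and the scale of the horizontal axis differs between panels. Fth1, Ftl1 and Hmox1 lie above 0 in all 3 sorts, while Mt1 and Mt2 lie below 0 in immune libraries.

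Differences between the PTX effects of the sorts were tested with an interaction term. For Hmox1 the PTX effect was smaller in immune than in keratinocyte libraries, with a difference of -8.55 ± 1.85 on the log2 scale (edgeR adjusted p = 0.00636). It was also smaller in fibroblast than in keratinocyte libraries, with a difference of -7.63 ± 1.94 (adjusted p = 0.021). These were the only calls among members, 1 of 10 in each contrast. Of all genes tested, 9.6% were called in the immune contrast (0.347% higher, 9.26% lower) and 3.31% in the fibroblast contrast (0.313% higher, 3% lower). The fibroblast against keratinocyte call was lost without keratinocyte vehicle male 1 (adjusted p = 0.0647), 2 (0.0589) or 3 (0.0846), and neither was called with voom quality weights (adjusted p = 0.946 and 0.18). In both, Hmox1 was under 1 CPM in every keratinocyte vehicle male, and the keratinocyte groups differed in the markers given above.

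The ferritin effect was not shown to differ between sorts. Fth1 differed by -0.23 ± 0.32 between the immune and keratinocyte effects (adjusted p = 0.8), and Ftl1 by -1.05 ± 0.44 (adjusted p = 0.128, and 0.00738 with plain CPM). Between the fibroblast and keratinocyte effects, Fth1 differed by -0.57 ± 0.46 (edgeR adjusted p = 0.614). Ftl1 differed there by -1.24 ± 0.60, with an unadjusted p of 0.0467 and an adjusted p of 0.264 in edgeR. Between immune and fibroblast libraries no member was called, against 3.51% of all tested genes (0.36% higher, 3.15% lower), and 2 members, among 2305 genes, had an unadjusted p under 0.05. Of these, Mt2 was at -1.94 ± 0.60 (edgeR adjusted p = 0.0706), and it passed with RLE scaling (adjusted p = 0.0405), with no filter on counts (0.0361), in DESeq2 (0.0279) and with plain CPM (0.0151). It also passed in 7 of 16 fits without 1 library, those without immune vehicle male 1 (0.0232), immune PTX male 1 (0.0371), 2 (0.0437) or 4 (0.00942), or fibroblast PTX male 1 (0.021), 2 (0.0308) or 4 (0.0232). Sod2 differed by 2.19 ± 0.89 between the fibroblast and keratinocyte effects, which did not pass in edgeR (adjusted p = 0.171) but did in DESeq2 (adjusted p = 0.0384). Nqo1, not called by edgeR between the immune and fibroblast effects, was called there by DESeq2 (adjusted p = 0.0142).

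**Figure D5:**
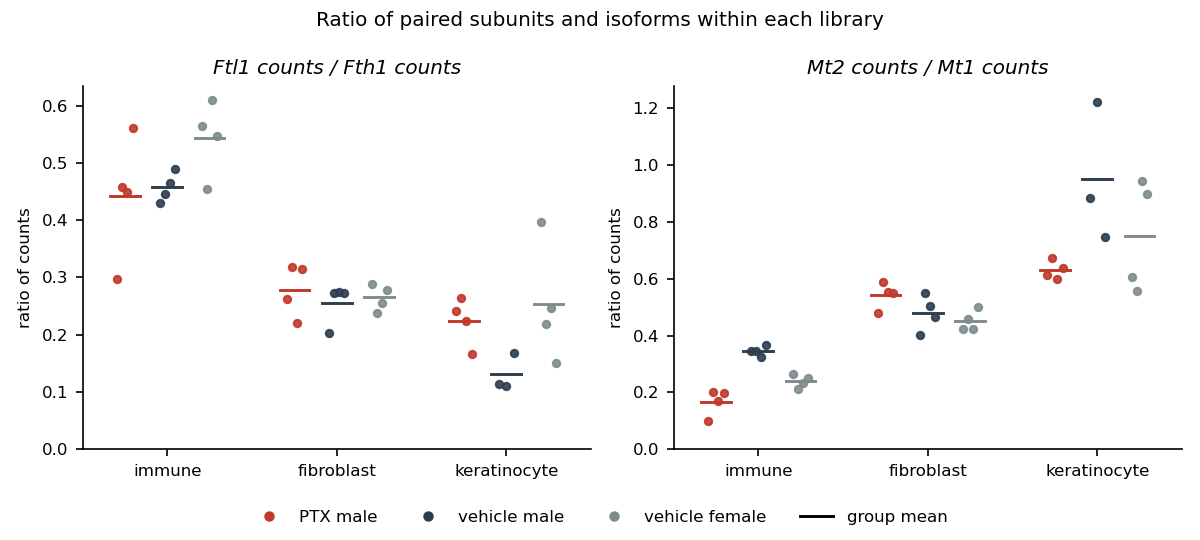
Ratio of Ftl1 to Fth1 counts (left) and of Mt2 to Mt1 counts (right) in each library, by sort and group, on linear axes from 0. Points are libraries and bars are group means. Mt2 to Mt1 lies at 0.0994 to 0.201 in immune PTX males and at 0.323 to 0.366 in immune vehicle males, and the Mt2 to Mt1 ratios of the 3 sorts do not overlap in vehicle libraries.

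Other genes of the same pathways came from 6 lists (iron handling, heme handling, NRF2 and glutathione, thioredoxin and peroxiredoxin, superoxide and peroxide, metallothionein and zinc) with 96 further genes, 95 of them in the tables. In immune libraries 2 of 88 tested rose with PTX and 5 fell, beside 0.824% of all tested genes called higher and 4.7% called lower. Nfe2l2, the gene of NRF2 itself, rose to 750 ± 193 CPM in PTX males, against 334 ± 43.8 CPM in vehicle males (SD, n = 4 each, 1.16 ± 0.23, edgeR adjusted p = 0.0126). Slc3a2, a chain of the cystine importer that feeds glutathione synthesis, rose to 1090 ± 199 CPM, against 629 ± 30.1 CPM (0.80 ± 0.18, adjusted p = 0.022). Vehicle females had 322 ± 53 CPM of Nfe2l2 and 811 ± 102 CPM of Slc3a2. Among those that fell were the secreted antioxidant enzymes Gpx3, at 15.2 ± 26.1 CPM against 596 ± 197 CPM, and Sod3, at 1.05 ± 0.75 CPM against 138 ± 45.4 CPM. Vehicle females had 25.4 ± 11.3 CPM of Gpx3 and 17.8 ± 13.1 CPM of Sod3, and fibroblast vehicle libraries averaged 692 ± 233 and 639 ± 162 CPM on the scale of all vehicle libraries. The fibroblast marker sums of the immune groups, given above, were also highest in vehicle males, and their part was not tested. Gpx7 and the zinc exporter Slc30a1 also fell, each to 0.26 CPM or less in every PTX library, against 20.2 ± 4.75 and 5.38 ± 6.29 CPM in vehicle males. Fewer genes were detected in the immune PTX libraries, as given above, and the part of this was not tested.

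Fibroblast libraries had no call among 81 tested list genes, and keratinocyte libraries 2 of 87, both higher in PTX males. Of all genes tested, 0.0184% were called in fibroblast libraries, and 1.15% were called higher in keratinocyte libraries. The 2 list genes called in keratinocyte libraries were Gpx3 and Sod3 (edgeR adjusted p = 0.0054 for Gpx3 and 0.0198 for Sod3). Gpx3 was at 325 ± 157 CPM in PTX males against 0.265 ± 0.150 CPM in vehicle males (n = 4 and 3). Sod3 was at 233 ± 128 CPM against 0.358 ± 0.181 CPM in vehicle males. Both are highest at rest in the fibroblast sort, and the fibroblast markers of these libraries were higher in PTX males, as given above; their part was not tested. List medians beside the median of all tested genes were 0.07 for the 28 NRF2 and glutathione genes tested, against 0.04, in immune libraries, and 0.28 against 0.07 in keratinocyte libraries. For the iron-handling list the medians were 0.08 over 20 genes in immune and 1.22 over 19 genes in keratinocyte libraries. In the same order, they were 0.02 and 0.60 for heme handling and 0.08 and -0.72 for thioredoxin and peroxiredoxin. Superoxide and peroxide genes had 0.25 and 2.62, over 10 genes each. Metallothionein and zinc genes had -2.18 over 6 genes and -0.26 over 7. None of the iron-handling genes was called in keratinocyte libraries.

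List genes were also compared between sorts at rest. Of 92 tested, 19 were higher and 12 lower in immune than in fibroblast libraries (background 13.3% and 7.91%), 26 and 12 in immune than in keratinocyte libraries (23.5% and 8.61%), and 19 and 15 in fibroblast than in keratinocyte libraries (20.6% and 10.5%). Slc11a1, the iron transporter of the phagosome, averaged 308 ± 92.1 CPM in immune libraries, against 0.650 ± 0.745 CPM in fibroblast and 0.282 ± 0.345 CPM in keratinocyte libraries (SD, n = 8, 8 and 7). Trf, which encodes the plasma iron carrier transferrin, averaged 1290 ± 281, 344 ± 503 and 4.19 ± 3.92 CPM in the same sorts. Cd163, the macrophage receptor that takes up hemoglobin bound to haptoglobin, was at 1360 ± 405 CPM in immune libraries and at 4.18 ± 3.28 and 5.15 ± 5.40 CPM in the others. Steap4, a metalloreductase, was at 104 ± 109 CPM in immune, 811 ± 242 in fibroblast and 26.4 ± 28.1 CPM in keratinocyte libraries. Each of these immune against fibroblast differences passed in edgeR's test, with an adjusted p of 0.000921 (Trf) or less.

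The genes whose levels ran most like those of the members were found by Pearson's r of log2(CPM + 1) over all 35 libraries, among 10919 genes. Libraries of a sort share their cells, so these values are a description. For Fth1 they were Ftl1 (0.946), Cxcl2 (0.921) and H2-D1 (0.921), and for Ftl1 they were Fth1, Crip1 (0.945) and Ctsb (0.944). For Hmox1 they were Ccl8 (0.938), Hexa (0.933) and Cyba (0.93). Mt1 and Mt2 were each other's nearest (0.894), followed by Gstm1 (0.843) and Cyr61 (0.834) for Mt1 and by Nhsl1 (0.877) and Nfix (0.875) for Mt2. Within a sort, r between Mt1 and Mt2 was 0.948 over 12 immune, 0.951 over 12 fibroblast and 0.856 over 11 keratinocyte libraries, and between Fth1 and Ftl1 it was 0.735, 0.919 and 0.771. The other members had weaker neighbours: Slc40a1 had Serpinb8 (0.793), Gclm had Immt (0.79), Txnrd1 had Tcp11l2 (0.756), Sod2 had Srsf2 (0.68) and Nqo1 had Pir (0.621).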

How the data were processed

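The files hold raw counts of reads per gene symbol, deposited as whole numbers with no scaling by the authors. Stranded single-end reads of 50 bases had been sequenced, per the labels' protocols. The submitters' processing notes name bcl2fastq, TopHat2, HTSeq and mm9, without versions; annotation and counting strand are not stated. Lines for unassigned reads entered neither library sizes nor tests. Alignments without a unique place made up 34.9 to 60.9% of a library's total over all lines.

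PTX effects were estimated in a separate model per sort with edgeR 4.0.16 in R 4.3.3, using filterByExpr, TMM, robust glmQLFit and glmQLFTest (quasi-likelihood, two-sided), and Benjamini-Hochberg adjusted p-values over all genes tested. Contrasts at rest came from a model of the 23 vehicle libraries, weighting the sexes equally, and interactions from models of 2 sorts. All 10 members are named. From each pathway list, at most 4 genes that passed with the lowest p are named, and 1 gene is not reported here. The members and lists were chosen with earlier results of these data known. Fold changes are printed where called, or where every library compared had at least 1 CPM and the change exceeded its SE. For edgeR that SE is the size of the change divided by the square root of its F statistic, not a separately fitted error. Fitted folds of sparse genes are no bounds, and counting intervals cover counting error only. Alternatives were RLE scaling, no count filter, DESeq2 1.42.0, voom quality weights (limma 3.58.1), a replicate block, other vehicle groups, plain CPM and leaving out each library; plain CPM for PTX effects and interactions was added after seeing the data. Only the main edgeR test of PTX was run on simulated counts. Their spread between replicates was set below the common estimate for these data, so that run does not show how accurate the test is here. Replicates differed by more than counting noise in every pair (chi-square per degree of freedom 89.8 or more).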

Additional observations from a re-analysis of the deposited data

Results flagged for a closer look

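Each member was looked at in each group of 4 libraries, which gave 80 sets of 4 values. In 8 of the 80 sets, 1 library lay far from the other 3 by an outlier test (Dixon's). Its rate of 1 in 20 by chance assumes normal values and separate sets. CPM values were not transformed and the sets share libraries, so no excess over chance can be read from this count. In fibroblast PTX male 3 Mt1 was at 9040 CPM, against 3410 CPM in the next library, and Mt2 at 5010 CPM, against 1880 CPM. In keratinocyte vehicle female 2, the library with the fewest counts, Hmox1 was at 38.6 CPM and Slc40a1 at 68.7 CPM, against 0.55 CPM in the next library for each. In keratinocyte vehicle female 1 Mt2 was at 3410 CPM, against 1310 CPM, and Nqo1 at 14.6 CPM, against 0.772 CPM. In immune vehicle male 2 Txnrd1 was at 348 CPM, against 257 CPM. The value of 0.0657 CPM for Nqo1 in immune PTX male 2 is 1 count where the other 3 libraries had 0.

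The PTX effect on Hmox1 differed between sorts by a test of the difference: -8.55 on the log2 scale for immune minus keratinocyte, and -7.63 for fibroblast minus keratinocyte. The markers of fibroblasts, immune and endothelial cells differed between the same keratinocyte groups, and their part was not tested.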

How the results depend on the processing

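For PTX in immune libraries (670 genes and 1 member called), the counts were 407 genes with no filter, 1870 genes and 4 members in DESeq2, 22 and 0 with voom quality weights, 146 and 0 with the replicate block, and 207 and 0 against vehicle females. In fibroblast libraries (2 genes, 0 members), genes called were 1 with RLE scaling, 4 with no filter, 403 in DESeq2, 0 with voom, 1 with only the 2 groups and 1 with plain CPM, and no member was called in any of these. In keratinocyte libraries (159 genes, 3 members), members called were 0 with RLE scaling and 1 with no filter, with the replicate block or against vehicle females, and genes called were 1339 in DESeq2, 339 with voom and 586 with both vehicle groups as controls. At rest, immune against fibroblast libraries gave 4839 genes with voom, 908 in males and 1538 in females alone, against 2985. Immune against keratinocyte libraries gave 1969 genes in males and 2453 in females alone, against 4533. Fibroblast against keratinocyte libraries gave 2 members with voom, 2012 genes in males, and 2171 genes and 3 members in females, against 4385 and 5. For the interactions, immune minus fibroblast (468 genes, 0 members) gave 1 member with RLE scaling, no filter or plain CPM, 2 members and 1758 genes in DESeq2, 0 genes with voom and 268 with the replicate block. Immune minus keratinocyte (1328 and 1) gave 3135 genes in DESeq2, 698 genes and 0 members with voom, 744 genes with the replicate block and 2 members with plain CPM. Fibroblast minus keratinocyte (433 and 1) gave 2064 genes and 2 members in DESeq2 and 284 and 0 with voom. The cause of these differences was not tested.

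Without 1 library, members called ranged from 0 to 2 in immune, 0 to 0 in fibroblast and 0 to 3 in keratinocyte libraries under PTX, and genes called from 230 to 950, 0 to 4 and 82 to 171. At rest the ranges were 6 to 6, 4 to 6 and 5 to 6 members and 2635 to 2889, 3982 to 4547 and 3976 to 4423 genes, for immune against fibroblast, immune against keratinocyte and fibroblast against keratinocyte libraries. For the interactions in that order they were 0 to 1, 1 to 1 and 0 to 1 members and 299 to 527, 601 to 1371 and 293 to 409 genes. A sign turned for Mt1 in fibroblasts under PTX without PTX male 3 (range -0.13 to 0.64 without 1 library), for Mt1 in immune against keratinocyte males alone (0.19) and for Mt2 in fibroblast against keratinocyte libraries with plain CPM (-0.069). Among the fold changes outside the fits without 1 library, 299 kept direction and call, 33 lost the call, 11 gained it and 2 turned sign; without 1 library, 544 kept both, 31 lost the call, 10 gained it and 1 turned sign. Plain CPM moved the median of all genes under PTX in immune libraries to -0.25, against 0.04 with TMM, and RLE scaling moved that of fibroblasts to 0.23, against 0.08. Same-numbered PTX and vehicle libraries did not deviate together (r between -0.05 and 0.05), so the numbers were not taken to pair samples. With the replicate block Fth1 was at 0.66 (adjusted p = 0.0602) in immune and 1.03 (0.0732) in keratinocyte libraries, and Ftl1 at 2.00 (0.137) in keratinocyte libraries. Keratinocyte depth, and that of vehicle female 2 in particular, limits the sparse genes. The number of genes detected differed between keratinocyte groups as well, as given above. Fewer genes were also detected in immune PTX libraries, and the part of this was not tested.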

Other observations

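Some list genes not described above differed in level between the sorts at rest. Cybb and Ncf1, which encode a membrane and a cytosolic subunit of the phagocyte NADPH oxidase, averaged 644 ± 204 and 294 ± 98.1 CPM in immune vehicle libraries. The same genes averaged 1.93 ± 1.56 and 0.859 ± 0.665 CPM in fibroblast libraries, and 1.98 ± 1.88 and 1.09 ± 0.79 CPM in keratinocyte libraries (SD, n = 8, 8 and 7). Prdx1, a peroxiredoxin that reduces peroxide, was at 360 ± 126 CPM in immune, 114 ± 42.7 in fibroblast and 595 ± 182 CPM in keratinocyte libraries. Tkt, the transketolase of the pentose phosphate pathway, was at 253 ± 45.9 CPM in immune, 181 ± 64.9 in fibroblast and 962 ± 280 CPM in keratinocyte libraries, and its differences of keratinocyte from both other sorts passed in edgeR's test. Mt4, a metallothionein of stratified epithelia, had 2.92 ± 3.87 CPM in immune libraries, no count in any fibroblast library and 596 ± 432 CPM in keratinocyte libraries.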
